A study of Homo sapiens with 14 samples.

Results

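Bivalent regions, here H3K4me3 regions that H3K27me3 peaks overlap in part or in full, were examined in LX-2 cells. The cells, an immortalised line of human hepatic stellate cells, were cultured for 2 days on soft or stiff matrices. The 4 H3K4me3 lists were merged into 20393 regions on standard chromosomes, of which 18538 were called in at least 2 lists. The members were selected by these calls: a region was kept when an H3K27me3 peak overlapped it by at least 1 bp in at least 2 of the 4 H3K27me3 lists. This left 430 bivalent regions, 2.32% of the 18538, and 18108 other H3K4me3 regions for comparison. Both matrices carried the same wild type cells, with no added drug or genetic change given in the labels, and each mark had 2 libraries per matrix except H3K27ac, with 1 merged list per matrix. The soft and stiff matrices were labelled 2K and 40K for the histone marks, and the stiff libraries of phosphorylated JUN (p-JUN) carried TCP, the study's name for culture plastic, in their titles. The p-JUN contrast is therefore between libraries labelled soft and libraries labelled stiff, and plastic cannot be told apart from the 40K matrix there. The study calls its sequencing replicates biological, while the labels name no separate cultures.

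H3K4me3 is deposited at promoters by the MLL and SET1 enzymes and H3K27me3 by the Polycomb complex PRC2. Where both are found, usually at promoters rich in CpG dinucleotides, the gene is typically silent or weakly transcribed, and many such genes are regulators of embryonic development. In CUT&Tag, an antibody guides a transposase to its target, and the released fragments are sequenced. The marks were measured here in separate libraries of many cells, so an overlap of lists cannot be told apart from a mixture of cells or alleles that carry 1 mark each. Of 14 marker genes of stellate cells and myofibroblasts, 8 carried H3K4me3 at a start site in all 4 lists. These were ACTA2, COL1A1, LOX, PDGFRA, PDGFRB, RELN, TAGLN and VIM. COL1A2, COL3A1, DES, HAND2, LHX2 and LRAT did not carry it in all 4. Of the hepatocyte markers 0 of 11 carried it in all 4 lists. The same was found at 2 of 5 cholangiocyte markers (EPCAM, SOX9), 1 of 7 endothelial markers (KDR) and 1 of 9 leukocyte markers (CD14).

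To show the DNA near the calls, the 200 bases upstream of a coding start site inside the region are given for bivalent genes called in all 8 lists. The stretches come from 1 gene per family and hold no annotated exon. They were read 5′ to 3′ from GRCh37 with CG dinucleotides in capitals. MEOX2 (chr7:15726309-15726508, minus strand) encodes a homeodomain factor of mesoderm. HEY2 (chr6:126068610-126068809, plus strand) encodes a repressor in the Notch pathway. CDH18 (chr5:19988317-19988516, minus strand) encodes a cadherin of the nervous system. GRIA4 (chr11:105480062-105480261, plus strand) encodes a subunit of AMPA glutamate receptors.
MEOX2: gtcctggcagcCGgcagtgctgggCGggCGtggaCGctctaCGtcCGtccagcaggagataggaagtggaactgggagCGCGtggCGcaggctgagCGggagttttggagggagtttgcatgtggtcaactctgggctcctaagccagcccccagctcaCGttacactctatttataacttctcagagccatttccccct
HEY2: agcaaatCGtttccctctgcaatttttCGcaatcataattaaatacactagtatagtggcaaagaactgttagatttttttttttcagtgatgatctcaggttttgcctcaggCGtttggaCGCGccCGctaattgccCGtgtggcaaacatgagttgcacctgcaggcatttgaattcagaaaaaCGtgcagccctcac
CDH18: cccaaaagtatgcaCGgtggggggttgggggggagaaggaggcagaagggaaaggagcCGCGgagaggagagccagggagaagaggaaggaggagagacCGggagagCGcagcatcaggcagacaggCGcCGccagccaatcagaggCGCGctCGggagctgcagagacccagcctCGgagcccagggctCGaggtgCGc
GRIA4: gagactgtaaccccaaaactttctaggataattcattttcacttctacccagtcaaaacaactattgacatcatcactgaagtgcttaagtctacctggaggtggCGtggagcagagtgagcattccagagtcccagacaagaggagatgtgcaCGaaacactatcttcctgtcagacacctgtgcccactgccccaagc
The stretch held 11 CG dinucleotides at MEOX2, 8 at HEY2, 13 at CDH18 and 2 at GRIA4. For a wider view, CG dinucleotides were counted in the 200 bases upstream of the outermost coding start site of each gene. That site need not lie at the bivalent region, and exons were not excluded. The 265 coding genes at a bivalent region had a median of 15 (lower and upper quartiles 7 and 23), and all 19813 coding genes a median of 12 (4 and 20). GRIA4 thus lay below the lower quartile of both sets. Its stretch lay mostly outside its bivalent region, which starts at chr11:105480225 and was covered by H3K27me3 to 100% in every library. The stretches of MEOX2, HEY2 and CDH18 lay inside their regions.

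Bivalent regions were mostly promoters. Of the 430, 262 lay within 1 kb of a protein-coding start site, covering 265 genes, 61 lay at a noncoding start site and 107 at none. The start of any protein-coding transcript counted. Some regions therefore lay inside the gene, away from its 5′ end, as at CDH11, CDH18, DKK2, GRIA2 and ROBO1. The other H3K4me3 regions were at coding start sites in 71.9%, against 60.9% of bivalent regions. Part of this gap lay in repeated DNA. A total of 66 bivalent regions (15.3%) had at least 50% of their 31-base words in more than 1 place in the genome, against 693 (3.83%) of the other regions. These 66, of which 42 lay within 100 kb of an assembly gap and 3 at a coding start site, are called repeated below, and reads there cannot be assigned to 1 locus with certainty. The remaining 364 single-copy regions were at coding start sites in 71.2%, close to the 73.4% of other single-copy regions.

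The single-copy bivalent regions were rich in CpG. Their median GC content was 61.8%, against 58.0% for other single-copy regions, and 60.7% of them had over 55% GC with an observed to expected CpG ratio over 0.65, against 41.4%. They were narrower, with a median width of 948.5 bp against 1145 bp. The H3K4me3 fold, which divides the summit by the local background of that library, had medians of 7.70 and 7.99 in the soft and 7.97 and 8.01 in the stiff libraries, against 8.40, 8.61, 8.82 and 8.93 in other single-copy regions. In fragments at the summit the gap was wider. Over all bivalent regions the medians were 41, 47, 43.5 and 59 fragments in the same order of libraries, where other H3K4me3 regions had 126, 152, 159 and 223.5.

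H3K27me3 peaks covered part of the bivalent regions and also lay past the ends of some of them. In the libraries with both peaks at a bivalent region, the H3K4me3 summit lay inside the H3K27me3 peak in 76.5%, 67.6%, 73.2% and 72.3% of regions (soft 1, soft 2, stiff 1 and stiff 2, each H3K27me3 library set against the H3K4me3 library of the same matrix and number). H3K27me3 covered a median of 45.5% of a bivalent region, averaged over the 4 libraries. At 1000 bp upstream or downstream in genome coordinates from the centre of single-copy bivalent regions, H3K27me3 peaks lay over 14.6% to 28.8% of regions and H3K4me3 peaks over 4.95% to 8.24%. At 2000 bp these were 4.67% to 10.4% and 0.549% to 1.65%. The regions are merged H3K4me3 peaks, so no H3K4me3 peak can pass the end of its own region. The H3K4me3 values at these distances follow from region width and nearby regions, and do not compare the extent of the marks.

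**Figure D1:**
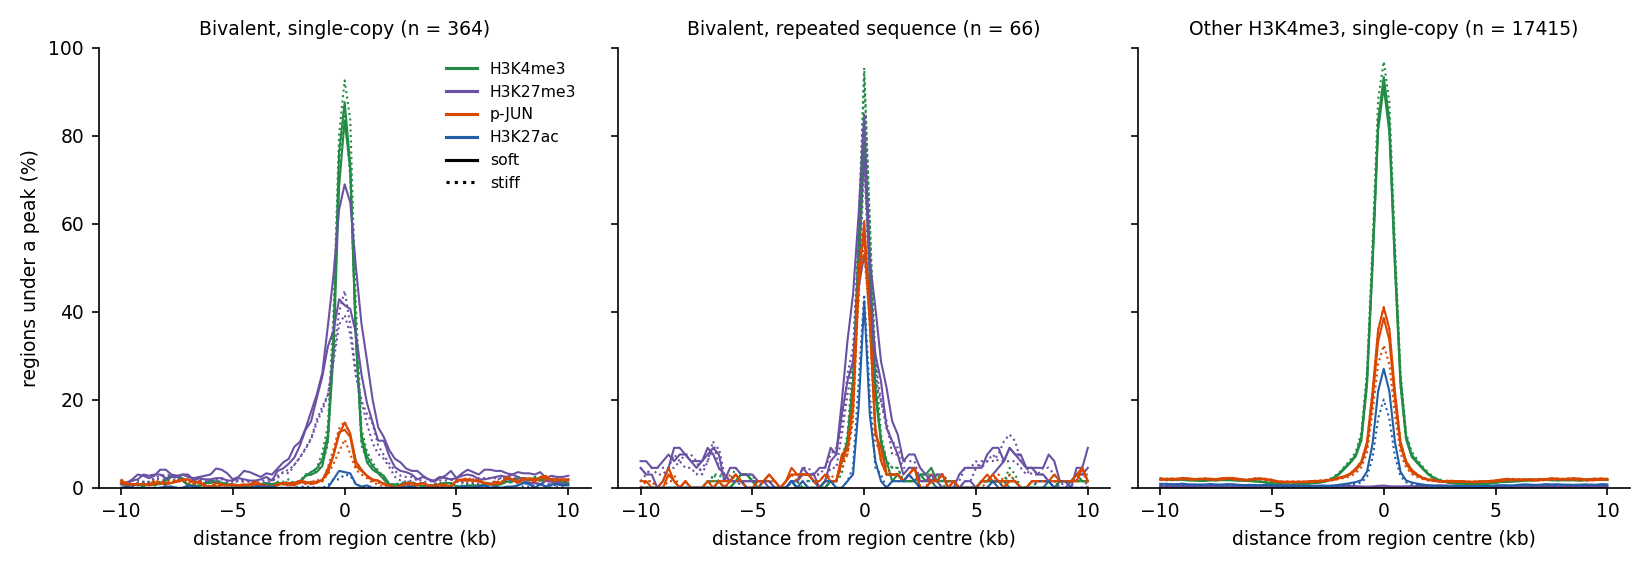
Share of regions under a peak (%) by distance from the region centre in kb, for single-copy bivalent regions, bivalent regions in repeated sequence and other single-copy H3K4me3 regions, with 1 line per library (solid soft, dotted stiff). The regions are merged H3K4me3 peaks, so the width of the H3K4me3 lines is set by the regions themselves. At single-copy bivalent regions p-JUN lies over 11% to 15.1% of centres against 32.4% to 41.1% in the other regions.

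Genes of development were frequent among the bivalent promoters. A bivalent region lay at 265 of 19794 coding genes (1.34%), or 2.07% of the 12776 genes with an H3K4me3 region, and each list below is set beside these values as a description. Over 16 lists of developmental transcription factors, 17 of 362 genes (4.70%) were bivalent, and over 9 lists of secreted signals, guidance and adhesion molecules, 25 of 278 (8.99%). Among genes with an H3K4me3 region these shares were 9.34% and 17.5%. Potassium channels and neurotransmitter receptors gave 8 of 198 (4.04%), or 15.7% of those with an H3K4me3 region. No ribosomal protein gene was bivalent, of 86 genes of which 83 had an H3K4me3 region. H3K27me3 without H3K4me3 within 1 kb of a start site was the more frequent state, at 858 of the 1289 coding genes with an H3K27me3 region.

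WNT ligands, secreted signals that act through frizzled receptors, had the highest share of the lists examined, with 5 of 19 genes. WNT7A had H3K27me3 over 100%, 78.0%, 83.3% and 55.1% of its region (soft 1, soft 2, stiff 1, stiff 2) and an H3K4me3 fold of 6.47, 5.97, 5.55 and 6.49. WNT1 and its neighbour WNT10B on chromosome 12 each had their own bivalent region, at chr12:49372667-49373915 and chr12:49365017-49365613. WNT1 was covered to 89.6%, 50.8%, 75.5% and 75.9%, and WNT10B had H3K27me3 in 3 lists, all but stiff 2. WNT7B was called in all 8 lists and WNT2 had H3K27me3 in soft 1 and stiff 2. Of the WNT receptors and antagonists, 2 of 24 were bivalent: DKK2, an inhibitor of WNT co-receptors, with H3K27me3 in both soft libraries and neither stiff library, and RSPO3, an enhancer of WNT signalling, with H3K27me3 in soft 1 and both stiff libraries but H3K4me3 in the soft libraries alone.

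The axon guidance list of semaphorins, slits and netrins with their receptors had 7 bivalent genes of 49 (14.3%): NTNG1, PLXNA4, ROBO1, SEMA3E, SEMA5B, SEMA6A and UNC5C. The netrin receptor UNC5C had the longest H3K4me3 region of all members, at 2820 bp (chr4:96468505-96471324). The slit receptor ROBO1 also ranked among the 5 longest, at 2675 bp. The others were FRAS1 (2733 bp), a protein of epithelial basement membranes, and TRHDE (2727 bp), a peptidase that cleaves thyrotropin-releasing hormone. The last was SSTR2 (2597 bp), a somatostatin receptor. These are lengths of H3K4me3 regions and not of the stretch under both marks. Averaged over the 4 libraries, H3K27me3 covered 12.4% of the UNC5C region and 14.2% of the ROBO1 region, with calls in 3 lists each. Among 36 cadherins outside the protocadherin clusters 5 were bivalent, CDH11, CDH18, CDH6, PCDH1 and PCDH20, whereas 0 of 53 clustered protocadherins were. CDH11, a mesenchymal cadherin, was covered by H3K27me3 to 100%, 89.7%, 59.5% and 95.9%. Its region (chr16:65154942-65155571) lay at an internal start site of the gene, whose 5′ end is at chr16:65160015 on the minus strand.

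Homeodomain factors outside the named subfamilies had 6 of 80 genes: CDX2, DMBX1, EMX1, GSX1, MEOX2 and TLX1. Of the developmental bHLH factors 3 of 56 were bivalent, HEY2, NEUROG2 and TCF21. TCF21, a regulator of mesenchymal cells including stellate cells, was covered to 100% and 41.8% on soft and 100% and 48.4% on stiff, and a neighbouring bivalent region lay 1656 bp from its start site. Single members came from the SOX (SOX3), PAX (PAX5), T-box (TBR1), LIM homeobox (LHX2) and NKX (NKX2-2) lists, and 2 of 46 FOX genes, FOXB2 and FOXP2, were bivalent. Of the 14 stellate cell or myofibroblast markers LHX2 and RELN were bivalent. LHX2, known to hold stellate cells in a quiescent state in the liver, rested on few calls: H3K4me3 in both stiff libraries and H3K27me3 in soft 1 and stiff 2. The HOX clusters had 1 bivalent gene of 39, HOXA13, although 32 had an H3K4me3 region. No gene of the GATA (6), sine oculis homeobox (6), DLX and MSX (8), IRX (6), POU (15), ZIC and GLI (8), KLF and EGR (22) or hedgehog (7) lists was bivalent. All these counts take regions within 1 kb of a start site. Outside that window, bivalent regions had GATA6, MSX1, MSX2, PAX2, PAX3, PAX9, HOXB9 and LHX5 among their nearest genes, and these were not counted.

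**Figure D2:**
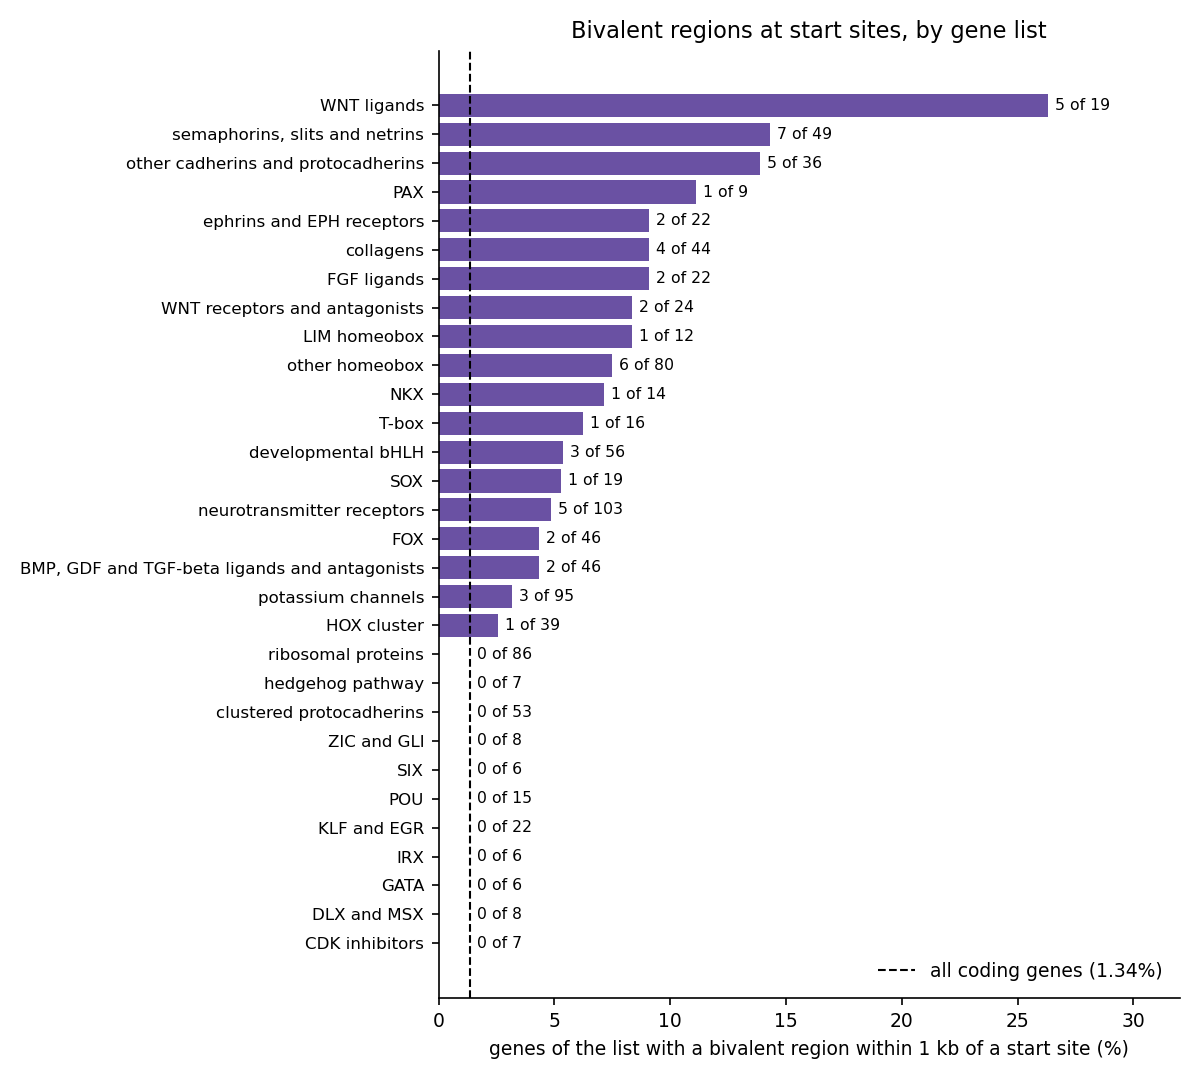
Share of each gene list (%) with a bivalent region within 1 kb of a protein-coding start site, with the number of genes beside each bar and the share of all coding genes as a dashed line (1.34%). WNT ligands (5 of 19) stand at the top, and 11 lists, ribosomal proteins among them, have 0 genes.

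Growth factors were represented by FGF10 and FGF14 (2 of 22), and by BMP6 and INHBB (2 of 46 BMP, GDF and TGF-beta ligands and antagonists). Ephrins and their receptors gave EFNB3 and EPHA6 (2 of 22). Among the 44 collagens 4 were bivalent, COL19A1, COL27A1 and the neighbours COL4A3 and COL4A4, which encode basement membrane chains and share a start region with few H3K4me3 fragments (20 to 26 at the summits). The fibrillar collagens COL1A1 and COL3A1 were not bivalent. Of 14 genes taken from the study, VCAN and ATF3 were members. VCAN, the matrix proteoglycan versican, was called in all 8 lists, with an H3K4me3 fold of 6.42, 7.42, 7.29 and 6.69 and H3K27me3 over 44.6%, 31.1%, 28.8% and 29.2% of its 2245 bp. PPARG, a nuclear receptor associated with the quiescent stellate cell and in no list above, was chosen after its values were seen. It was called in all 8 lists too, with H3K27me3 over 47.7%, 41.4%, 47.7% and 53.4% of the region.

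The H3K27me3 calls at the members varied with the library. H3K27me3 was called at 418 and 310 of the 430 regions on soft and at 295 and 306 on stiff. All 4 libraries had a peak at 182 regions, 3 at 105 and 2 at 143. Just outside the rule, 254 regions had H3K27me3 in exactly 1 list, and in 185 of them that list was soft 1, which held 19843 peaks where the other 3 held 6974 to 9228. H3K27me3 covered a median of 10.4% of those 254 regions and 25.9% of the 143 just inside, averaged over the 4 libraries. On the H3K4me3 side, 75 regions with H3K27me3 in at least 2 lists had H3K4me3 in exactly 1 list, and 48 members had it in exactly 2.

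**Figure D3:**
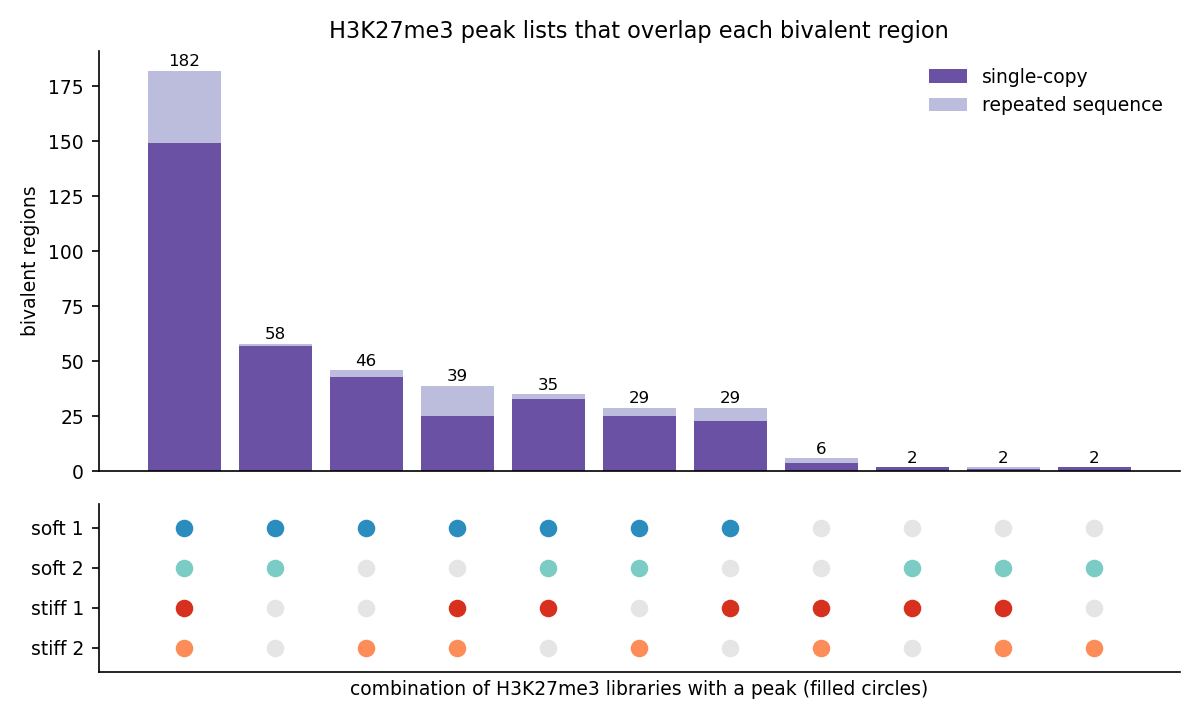
Number of bivalent regions by the combination of H3K27me3 libraries (filled circles) with a peak there, split into single-copy and repeated sequence. All 4 libraries share 182 regions, 58 have H3K27me3 in both soft libraries alone and 6 in both stiff libraries alone.

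To compare the matrices, the regions with H3K27me3 in both libraries of 1 matrix and neither of the other were counted. There were 58 soft-only members (13.5%) and 6 stiff-only members (1.40%), against 19.8% and 1.27% of the 9665 merged H3K27me3 regions called in at least 2 lists. The asymmetry was thus that of the H3K27me3 lists in general, which the rule used. With all H3K27me3 lists brought to the length of the shortest, 27 members were soft-only and 19 stiff-only. By mean H3K4me3 fold, the soft-only members were led by PGM5, TEX15, a region 25446 bp from the nearest start site of THRB, MAP6, SUSD5 and a region near CLPTM1L. PGM5 lies in repeated sequence. MAP6, which stabilises microtubules, had H3K27me3 over 93.3% and 45.6% of its region on soft. The start sites of NKX2-2, TBR1, RELN and BMP6 had the same pattern.

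Among the 6 stiff-only members, ATF3, a stress-induced transcription factor of the AP-1 related bZIP class, had H3K27me3 over 8.66% of its 2413 bp in both stiff libraries. This call came from the ends of the peaks. The H3K27me3 region that reaches into it was called in all 4 libraries, with a fold of 2.69 and 2.93 on soft and 2.64 and 2.39 on stiff (log2 difference -0.21, adjusted p = 0.712 in limma), so its level was not higher on stiff. The rest of that region carried H3K4me3 in every library, with a fold of 5.22 and 5.07 on soft and 6.06 and 5.96 on stiff. PCOLCE2, an enhancer of procollagen processing, was covered to 44.1% and 39.7% on stiff, with 14 to 21 H3K4me3 fragments at its summit and p-JUN in all 4 libraries. At A4GALT and CYB5R3, which share a start region, the call likewise came from peak ends, since the adjoining H3K27me3 region was called in all 4 libraries. The other 3 were regions nearest to TMEM242 and SPATA31A7, both in repeated sequence, and to ENSG00000284209.

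H3K4me3 was called at 375 and 389 members on soft and 394 and 403 on stiff. Soft-only calls were found at 9 members (2.09%) and stiff-only calls at 24 (5.58%), beside 1.37% and 1.94% of the 18538 regions. Members were selected on the same lists, so these counts are descriptive. H3K4me3 levels were then compared over all 16098 regions called in the 4 lists, by limma on the log2 fold with each library centred on its median. No region passed an adjusted p of 0.05 (0 of 16098, 0%), and 10.2% had an unadjusted p under 0.05. Of the 319 members tested 0 passed and 55 had an unadjusted p under 0.05, 26 higher and 29 lower on stiff. Without centring, the split was 41 higher and 12 lower, so it has no stable direction. Their median difference was -0.01 on the log2 scale, and the lowest adjusted p of any member was 0.342.

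The member furthest up was BMP6, a ligand that regulates iron metabolism and is produced in the liver. Its H3K4me3 fold in the soft libraries was 5.61 and 5.07 and in the stiff libraries 8.20 and 8.14, with no overlap between the groups, a log2 difference of 0.54 (SE 0.09) that did not pass in limma (adjusted p = 0.342). H3K27me3 covered 20.8% and 27.3% of that region on soft and was not called there on stiff. CDH11 stood among the lowest of the members, with a fold of 5.52, 5.60, 5.14 and 3.57 and a log2 difference of -0.45 (SE 0.17, adjusted p = 0.468 in limma), and 3 of its 4 values were close. Both were chosen after their values were seen. Counted in summit fragments in place of fold, the members' median difference was -0.16 against -0.01 over all regions, and 122 of 319 members had an unadjusted p under 0.05, of which 95 were lower on stiff. Over all 16098 regions 19.3% had an unadjusted p under 0.05 and 10 passed the adjusted threshold (0.0621%). None of the 10 was a member (lowest adjusted p of a member 0.0557 in limma), and the part of background and depth in this shift was not tested.

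H3K27me3 levels were compared over the 2602 merged H3K27me3 regions called in all 4 lists, of which 215 overlapped a member. No region passed (0 of 2602, 0%), and 6.61% had an unadjusted p under 0.05. Among the 215, 0 passed in limma and 19 had an unadjusted p under 0.05, 5 higher and 14 lower on stiff, with a median log2 difference of -0.02. Without centring the split turned to 14 higher and 7 lower (median 0.03), and without soft replicate 1 it was 10 and 10. The lowest value was at PPARG, where soft libraries had an H3K27me3 fold of 4.09 and 3.69 and stiff libraries one of 3.10 and 3.28. The groups did not overlap, and the log2 difference was -0.33 (SE 0.09, adjusted p = 0.677 in limma). Its H3K4me3 fold was 6.80, 7.43, 7.27 and 9.57, with stiff 1 between the soft libraries.

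**Figure D4:**
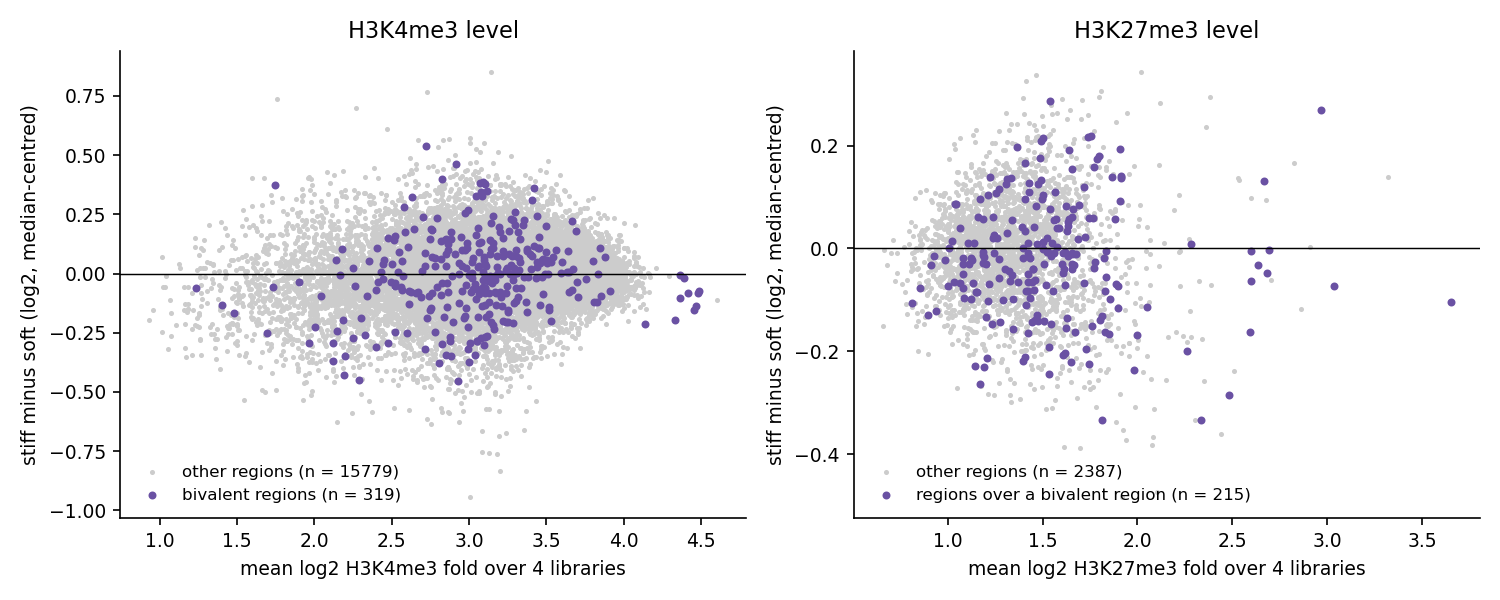
Difference between matrices (stiff minus soft, log2 fold centred per library) against the mean log2 fold of 4 libraries, for H3K4me3 regions (left) and H3K27me3 regions (right), with members or regions over them in purple and other regions in grey. Members lie within the cloud of other regions, between -0.45 and 0.54 for H3K4me3 and between -0.33 and 0.29 for H3K27me3.

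p-JUN, the active form of an AP-1 subunit, and H3K27ac, which marks promoters and enhancers in use, were not used to choose the members. p-JUN peaks overlapped 29.5% (soft 1) and 28.4% (soft 2) of bivalent regions, and 23.7% and 28.8% where the library was labelled stiff. In other H3K4me3 regions the shares were 62.5%, 59.7%, 52.5% and 63.2%. The bivalent share was lower in 4 of 4 libraries, by 31.8 percentage points on average (two-sided exact sign-flip test over libraries, p = 0.13, the smallest the design allows). Among single-copy regions the gap was 38.5 points, with 23.4%, 21.7%, 17.3% and 22.8% of bivalent regions against 62.8%, 60.0%, 52.8% and 63.6%. At coding promoters alone it was 38.9 points.

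The lower share was already present with H3K27me3 in 1 list. Single-copy H3K4me3 regions with no H3K27me3 peak had p-JUN in 53.3% to 64.1%, those with H3K27me3 in 1 list, which fall outside the rule, in 15.2% to 22.5%, and those with 4 lists in 14.8% to 21.5%. Bivalent regions had fewer H3K4me3 fragments, so the comparison was repeated in single-copy regions whose mean summit fragments lay between the lower and upper quartiles of the members, 25.7 and 77.2. There 182 bivalent regions had p-JUN in 18.7%, 18.1%, 11% and 17.0%, and 3202 other regions in 48.8%, 46.7%, 41.4% and 49.4%. These bivalent regions were the wider ones, with a median of 1009.5 bp against 821 bp. The part of other differences, such as base composition, was not tested.

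H3K27ac followed the same order, with 1 list per matrix and no replicate error. It overlapped 5.49% of single-copy bivalent regions on soft and 3.57% on stiff, against 42.9% and 32.3% of other single-copy regions. With the H3K4me3 fragments bounded as above, the shares were 2.20% and 1.65% against 28.9% and 23.2%. Neither p-JUN nor H3K27ac was called in any list at 259 of the 364 single-copy bivalent regions (71.2%), and at 27.2% of other single-copy regions. All 17 bivalent developmental transcription factor genes lacked H3K27ac, and 14 lacked p-JUN. Of the 25 signalling and adhesion genes 24 lacked H3K27ac and 19 lacked p-JUN. Among all single-copy bivalent regions 344 of 364 lacked H3K27ac and 260 of 364 lacked p-JUN, so the family counts lay close to those of members in general.

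**Figure D5:**
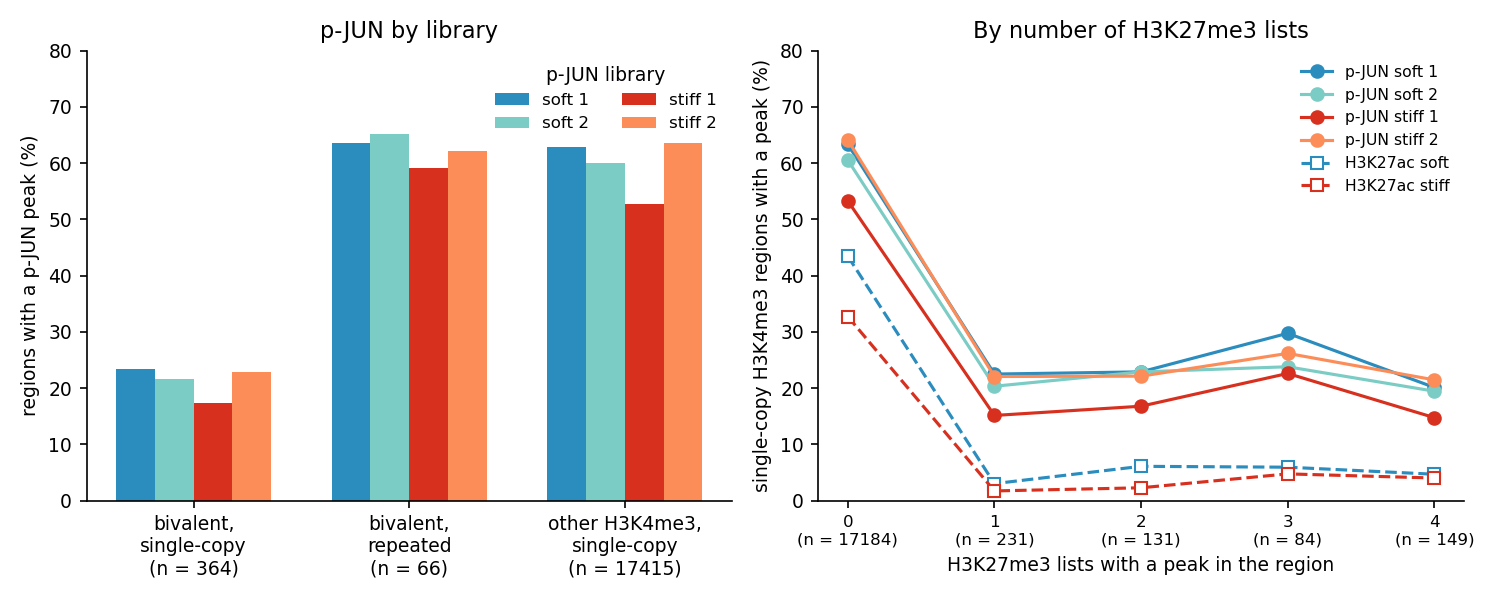
Left, share of regions with a p-JUN peak (%) in each p-JUN library for single-copy bivalent, repeated bivalent and other single-copy H3K4me3 regions. Right, share of single-copy H3K4me3 regions with p-JUN (circles, 1 line per library) or H3K27ac (squares, 1 list per matrix) by the number of H3K27me3 lists with a peak there, with n regions under each number. The p-JUN share falls from 53.3% to 64.1% at 0 lists to 15.2% to 22.5% at 1 list.

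Between the matrices the p-JUN shares of bivalent regions overlapped. They averaged 29% on soft and 26.3% in the libraries labelled stiff, a difference of -2.67 percentage points (two-sided exact permutation test over 4 libraries, p = 0.667, where the smallest possible is 0.33). This design cannot show that the shares are alike. The groups no longer overlapped (p = 0.333 in the exact permutation test, the smallest possible) with p-JUN lists of equal length (-3.84 points), with the p-JUN summit required inside the region (-3.49) or with H3K27me3 over at least 50% of the region (-3.78). Stiff replicate 1 set most of the difference, and without that library the difference was -0.12 points. Other H3K4me3 regions moved by -3.25 points over the same libraries. Soft-only p-JUN calls, in both soft and neither of the libraries labelled stiff, were found at 9 bivalent regions (2.09%), and stiff-only calls at 3 (0.698%), beside 1.33% and 0.281% of the 18538 regions. The bivalent region near THRB, which encodes a thyroid hormone receptor, was among the 9, with a p-JUN fold of 4.37 and 4.29 on soft.

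A minority of bivalent promoters carried p-JUN in every library. There were 93 bivalent regions with p-JUN in all 4, 54 of them single-copy and 35 at coding promoters. Among single-copy regions this was 54 of 364 bivalent and 8653 of 17415 other ones. ATF3 had a p-JUN fold of 10.7, 11.8, 11 and 12, and H3K27ac in the soft list alone (fold 6.59). TCF21 had 6.97, 8.53, 7.13 and 7.59, with no H3K27ac. VCAN had lower p-JUN values, at 4.99, 6.53, 4.77 and 5.99, and no H3K27ac. WNT2 (9.12, 7.83, 7.34 and 8.91) and the pancreatic factor PDX1 (6.53, 5.36, 6.20 and 8.32, in no list above and chosen after its values were seen) were alike in this respect. In each of these 5 genes the soft and stiff values overlapped. COL27A1, a fibrillar collagen of cartilage, was the bivalent collagen with p-JUN, at 4.45, 4.31, 4.08 and 5.12.

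Every p-JUN library and every H3K27ac list had a peak at 40 bivalent regions, of which 27 were repeated and 5 at coding promoters. Among single-copy regions the same was found at 13 of 364 bivalent and 4352 of 17415 other ones. The 5 at coding promoters lay at PDE4DIP (2 regions), CDH18, OXCT1 and TES. TES, which encodes a focal adhesion protein, had a p-JUN fold of 14.3, 13.3, 11.9 and 13.9 and an H3K27ac fold of 7.35 and 10.1, with H3K27me3 in all libraries but stiff 1. CDH18 was the coding promoter called in all 14 lists. H3K27ac in 1 list was found at 12 members, including PDK4, a kinase that restrains glucose oxidation, and SHANK2, a synaptic scaffold protein, both in the soft list.

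The letters of the AP-1 site, TGACTCA or TGAGTCA (each the reverse complement of the other), were found in 7.69% of single-copy bivalent regions and 17.4% of other single-copy regions, which were wider. Within 100 bases of the median p-JUN summit they were found in 6 of the 54 single-copy bivalent regions with p-JUN in all libraries (11.1%) and 1 of 39 repeated ones. The same share was not measured at p-JUN summits of other H3K4me3 regions, so it has no comparison here. To show where p-JUN met such letters, the 201 bases around the summit are printed for 3 regions outside annotated exons, from GRCh37, plus strand, with the letters in capitals. They lie at MAPRE2 (chr18:32559106-32559306), which encodes a microtubule end-binding protein, PITPNM3 (chr17:6458865-6459065), which encodes a phosphatidylinositol transfer protein, and near DHX15 (chr4:24471778-24471978), and were chosen after the match was seen.
MAPRE2: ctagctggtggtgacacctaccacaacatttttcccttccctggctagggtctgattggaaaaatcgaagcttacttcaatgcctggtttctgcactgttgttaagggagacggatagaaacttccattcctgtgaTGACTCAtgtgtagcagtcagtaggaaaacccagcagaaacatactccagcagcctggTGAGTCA
PITPNM3: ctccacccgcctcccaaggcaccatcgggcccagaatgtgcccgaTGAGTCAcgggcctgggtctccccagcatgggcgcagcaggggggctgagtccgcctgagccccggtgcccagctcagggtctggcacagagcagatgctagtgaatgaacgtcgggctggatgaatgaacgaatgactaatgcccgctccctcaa
DHX15 (nearest): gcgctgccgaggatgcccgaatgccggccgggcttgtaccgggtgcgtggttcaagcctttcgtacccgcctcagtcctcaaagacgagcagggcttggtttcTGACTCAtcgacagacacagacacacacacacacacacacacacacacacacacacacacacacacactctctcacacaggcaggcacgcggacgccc
At MAPRE2 the 4 p-JUN summits lay on the same base, 36 bases before the first match, and just beyond the end of the H3K4me3 region. Its p-JUN fold was 12.3, 13.1, 12.7 and 13.6, and H3K27me3 was called in both soft libraries and neither stiff library. Near DHX15 the match started 3 bases after the summit, and at PITPNM3 55 bases before it. A match describes the letters of the window and is not a measured binding site.

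The repeated bivalent regions carried p-JUN and H3K27ac more often than the single-copy ones. p-JUN overlapped 63.6%, 65.2%, 59.1% and 62.1% of the 66, close to the share in other H3K4me3 regions, and H3K27ac 47.0% and 48.5%. Single folds were also high. The subtelomeric region nearest to ANHX (chr12:133841518-133841897) had an H3K4me3 fold of 22.4, 22.3, 22.7 and 22.0, a p-JUN fold of 30.0, 29.9, 30.4 and 31.2 and an H3K27ac fold of 28.7 and 28.6, with H3K27me3 folds of 14.2 to 15.6 in 3 libraries. The region nearest to FAM27E3 on chromosome 9 and the pair nearest to WASH6P completed the 4 members with the highest p-JUN fold, and 8 repeated members held at least 50 copies of the telomere repeat. Antibodies to 4 targets thus gave peaks at the same places, and 11 of the 17 bivalent regions called in all 14 lists were repeated. Since reads of many copies fall on these repeated loci, whether any copy carries both marks was not tested. The other 6 were CDH18 and regions nearest to FAM72B, PRIM2, SPATA31A7, ROCK1 and UQCRFS1, which lay at no coding promoter. The mean p-JUN fold was 17.6 near FAM72B and 17.8 near UQCRFS1. The 31-base words count copies in the assembly alone, so copies missing from it would go unseen in the single-copy set, which was not tested.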

How the data were processed

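CUT&Tag peaks of H3K4me3, H3K27me3 and p-JUN (2 libraries per matrix each) and H3K27ac (1 merged list per matrix) were analysed in LX-2 cells. The authors used Trim Galore on the reads, Bowtie2 for alignment to hg19, Picard for marking duplicates and MACS2 for peaks, whose version, options and control are not given in the sources used here. The deposited lists hold a fold (a linear ratio of the summit to background), −log10 p and q values, a score and a summit offset. The lowest −log10 q was 1.31 to 1.32 in the H3K27me3 lists and 5.00 to 5.25 in the others. H3K27me3 calls, and so the bivalent state, thus rest on a looser cutoff than the other calls. H3K27me3 peaks were deposited as broad peaks, whose fold is a mean over the peak. The lists give no read totals and were not scaled to each other, so list length (6974 to 54168 peaks) was the measure of depth, and shares carry no counting interval. Summit fragments were recovered from fold and p at 99.0% or more of the peaks used (relative tolerance 0.0001).

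H3K4me3 peaks were merged at 1 bp. Genes are those with a start site of any GENCODE release 44 protein-coding transcript on GRCh37 within 1 kb. Repeated sequence was defined by 31-base words, after the data were seen, as was the comparison bounded by H3K4me3 fragments. Levels were compared by limma 3.58.1 (R 4.3.3) on log2 of the deposited fold with Benjamini-Hochberg adjustment, after the fit was tested on simulated data, and p-JUN shares by exact enumeration over libraries (Python 3.11.15, pandas 2.3.3). Named genes were up to 4 per list by H3K27me3 lists and cover, up to 6 per direction called on 1 matrix only by H3K4me3 fold, up to 4 with H3K27ac in both or in 1 list, up to 4 with p-JUN in all libraries, genes taken from the study and the 5 longest regions. Other names were chosen after their values were seen. The members and lists were chosen with earlier results of these data known. No per-sample column was left unmapped. The main comparisons between matrices did not pair libraries by replicate number, and alternatives are given in the closing section.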

Additional observations from a re-analysis of the deposited data

How the results depend on the processing

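The number of bivalent regions depended on the H3K27me3 lists required: it was 684 with at least 1 list, 182 with all 4 and 251 where H3K27me3 had to cover at least 50% of the region, and it lay between 297 and 393 when 1 H3K27me3 library was left out. Soft-only minus stiff-only H3K27me3 calls, 52 regions, fell to 8 with equal list lengths (27 and 19) and to 29 with 50% cover (32 and 3). These are changes of the rule itself. The p-JUN difference between matrices kept its sign under the alternatives run, from -5.23 points without stiff replicate 2 to -0.12 without stiff replicate 1. With the replicate number as a block it was -2.67 points, from -5.81 and 0.465 within the numbers. The p-JUN gap between bivalent and other regions lay between -32.9 and -31.0 points with 1 library left out. In limma 0 members passed for either mark under the alternatives run, the block included (lowest adjusted p 0.444 for H3K4me3 and 0.104 for H3K27me3), and with the block 5 of 2602 H3K27me3 regions were called, none over a member. Deviations of same-numbered libraries correlated at -0.05 for H3K4me3 and 0.04 for H3K27me3, and p-JUN was not checked in this way. Such values cannot show whether same-numbered libraries shared a culture or a batch. Without centring, the median H3K4me3 difference of all regions moved to 0.07 on the log2 scale, and 210 of 319 members were then higher on stiff, against 150 with centring. The remaining alternatives of the region count gave 287 to 364 regions. Groups of 2 libraries and the unknown sequencing depth limit these comparisons.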
